A study of Mus musculus with 17 samples.

Results

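The expression of 8 genes of the tumour necrosis factor (TNF) superfamily was measured in CD8 T cells from mouse lung tumours: the receptors Tnfrsf9 (4-1BB), Tnfrsf4 (OX40), Tnfrsf18 (GITR), Tnfrsf1b (TNF receptor type II) and Cd27, and the ligands Tnfsf4 (OX40 ligand), Tnfsf9 (4-1BB ligand) and Cd70 (the ligand of CD27). They were chosen by gene symbol, with earlier results of these data known. They are 8 of the 27240 genes in the deposited count table, and all 8 passed the expression filter that left 20137 genes for testing. The cells were sorted by flow cytometry and profiled by bulk RNA sequencing in 17 libraries. Tumours came from WT mice or from mice without PD-L1 in their endothelium (KO), PD-L1 being the protein that engages the inhibitory receptor PD-1. Tissue enriched for the tumour core was taken as macroscopic nodules, and tissue enriched for the rim as nodules in the parenchyma. WT mice gave 5 core and 2 rim libraries, and KO mice 6 core and 4 rim libraries; 1 WT core library was a pool. Not given in the sources used here are the tumour model, the driver of the endothelial deletion, the age of the mice and how pure the sorted cells were.

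TNF-superfamily ligands are mostly membrane proteins that bind as trimers and cluster their receptors on the opposing cell. The co-stimulatory receptors carry no enzyme of their own. They recruit TRAF adaptor proteins, which switch on NF-kappa B and favour survival and division of T cells that have met antigen. Tnfrsf9 and Tnfrsf4 are low on resting T cells and are induced by T cell receptor signalling, Cd27 is already present on naive T cells, and the ligands are best known from dendritic cells, B cells and macrophages, although activated T cells can also make some of them.

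Of the 5 receptors, 4 lie on chromosome 4 (coordinates from GENCODE M21 on GRCm38, each span covering the whole gene). Tnfrsf1b spans chr4:145213463-145246870 on the minus strand, Tnfrsf9 chr4:150914562-150946102, Tnfrsf4 chr4:156013843-156016612 and Tnfrsf18 chr4:156026164-156028895, the last 3 on the plus strand. Tnfrsf4 and Tnfrsf18 are neighbours, separated by 9551 bases. Cd27 spans chr6:125232622-125237010 on the minus strand and Tnfsf4 chr1:161395409-161418410 on the plus strand. Tnfsf9 (chr17:57105325-57107757, plus strand) and Cd70 (chr17:57145997-57149777, minus strand) are separated by 38239 bases. Strand-specific counting is neither stated nor denied in the sources used here. The exons of Tnfrsf18 share 414 bases with the antisense gene Gm16008, and those of Tnfsf9 share 192 bases with the antisense gene Gm11110. Gm16008 averaged between 0.109 and 1.82 CPM (a gene's count scaled to a common library total) over the 4 groups, and Gm11110 between 7.37 and 11.1 CPM. The value of Tnfsf9 in particular may thus be altered by reads on the shared bases. How such reads were assigned is not given, so the direction of any change is not known.

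Promoter sequences are shown for Tnfrsf9, Tnfrsf4 and Tnfrsf18, 3 of the receptors on chromosome 4, because the first pair of them varied together across the libraries and the neighbour of Tnfrsf4 did so less closely. Each sequence runs from 250 bases before to 50 bases after a RefSeq transcription start (GRCm38.p6, plus strand). The first and second Tnfrsf9 starts cover chr4:150919905-150920204 and chr4:150927749-150928048, Tnfrsf4 covers chr4:156013445-156013744 and Tnfrsf18 covers chr4:156026072-156026371. Capitals mark matches, on either strand, to the kappa B consensus bound by NF-kappa B or to the AP-1 motif TGANTCA.
Tnfrsf9, first start: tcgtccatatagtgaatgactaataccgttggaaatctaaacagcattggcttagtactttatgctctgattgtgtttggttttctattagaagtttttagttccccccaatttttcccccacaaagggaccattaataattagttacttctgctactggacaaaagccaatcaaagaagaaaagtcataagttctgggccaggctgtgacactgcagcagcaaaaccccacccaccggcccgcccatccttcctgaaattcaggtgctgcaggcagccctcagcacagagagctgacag
Tnfrsf9, second start: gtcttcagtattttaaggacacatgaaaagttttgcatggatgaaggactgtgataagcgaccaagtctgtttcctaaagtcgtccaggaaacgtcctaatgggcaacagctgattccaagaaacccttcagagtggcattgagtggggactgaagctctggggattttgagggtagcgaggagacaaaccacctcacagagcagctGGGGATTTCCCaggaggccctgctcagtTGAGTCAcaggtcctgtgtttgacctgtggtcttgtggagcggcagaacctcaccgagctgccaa
Tnfrsf4: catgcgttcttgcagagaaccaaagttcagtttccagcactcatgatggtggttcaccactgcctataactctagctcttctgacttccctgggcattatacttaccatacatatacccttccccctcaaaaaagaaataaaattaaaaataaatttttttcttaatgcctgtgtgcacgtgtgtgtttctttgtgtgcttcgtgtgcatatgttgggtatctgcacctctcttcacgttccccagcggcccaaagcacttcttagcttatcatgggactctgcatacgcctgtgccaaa
Tnfrsf18: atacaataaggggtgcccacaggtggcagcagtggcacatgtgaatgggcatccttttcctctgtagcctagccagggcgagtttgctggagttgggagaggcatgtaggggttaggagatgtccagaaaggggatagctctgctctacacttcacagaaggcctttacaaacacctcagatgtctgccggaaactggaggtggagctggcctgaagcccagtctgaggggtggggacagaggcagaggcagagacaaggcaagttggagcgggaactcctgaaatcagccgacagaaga
RefSeq held promoters for 5 of the 8 genes, with 6 starts in all, and Tnfsf4, Tnfsf9 and Cd70 were not among them. The second Tnfrsf9 start alone of the 6 had a kappa B match: the overlapping GGGGATTTCC and GGGATTTCCC, with first bases at -43 and -42 from the start. It also alone had an AP-1 match, TGAGTCA, beginning at -15. Of 32851 mouse promoters of the same length, 4.505% held the kappa B consensus and 7.808% the AP-1 motif. A looser kappa B pattern, GGG and CC with any 5 bases between them, was searched first and was replaced once it was seen to occur in 50.79% of promoters. That pattern also matched the promoters of Tnfrsf1b and Cd27. The short NFAT core GGAAA occurred in all of these promoters except that of Tnfrsf1b, and in 61.34% of all promoters. These matches describe letters in a window and carry no information on binding in these cells.

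Total counts ran from 21767045 to 32566456 per library. Cd8a, Cd8b1 and Cd3e, which define CD8 T cells, were abundant in every group: Cd8a averaged 1416 CPM in WT core, 1371 CPM in KO core, 792 CPM in WT rim and 1222 CPM in KO rim. In the same order, Cd8b1 averaged 1210, 1240, 1500 and 1390 CPM and Cd3e 1030, 1010, 834 and 1040 CPM. The lower mean in WT rim than in WT core was thus not shared by Cd8b1. Transcripts listed as markers of other cells were also present in all groups. The summed CPM of 9 dendritic cell markers ran from 2541 to 18400 and that of 8 macrophage markers from 518.9 to 6708. Cd74, H2-Ab1 and Ccr7 made up much of the dendritic cell sum, and which cells they came from was not tested. PD-L1 was deleted in endothelial cells, so its transcript in sorted T cells does not check the genotype. Nothing in the labels says that libraries came from separate animals, and p-values therefore measure differences against the spread between libraries, which may be technical. The identifiers F322, F86 and O occur in both KO core and KO rim. In bulk RNA, fewer cells expressing a gene and less RNA per cell cannot be told apart.

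Of the 4 comparisons of 2 groups, core against rim in WT mice gave the only calls among these genes. Tnfrsf9, Tnfrsf4 and Tnfsf4 were higher in WT core than in WT rim by 12.2-fold, 10.6-fold and 7.61-fold, and each passed edgeR's quasi-likelihood test with Benjamini-Hochberg adjustment over all 20137 genes at an adjusted p under 0.05. The other 5 genes did not pass. In KO mice no member differed between core and rim past the test. The comparison called 777 of 20137 genes (3.86 percent), of which 422 (2.1 percent) were higher in core and 355 (1.76 percent) lower. Of the 8 members, 3 were called higher and 0 lower. By CPM, WT core lay wholly above WT rim for Tnfrsf9, Tnfrsf4, Tnfrsf1b, Tnfsf4 and Cd70, as it did for 11.2 percent of all genes, and wholly below it for 0 members against 8.52 percent of all genes. Only 2 WT rim libraries enter this comparison, and their spread was estimated with that of the other groups.

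**Figure D1:**
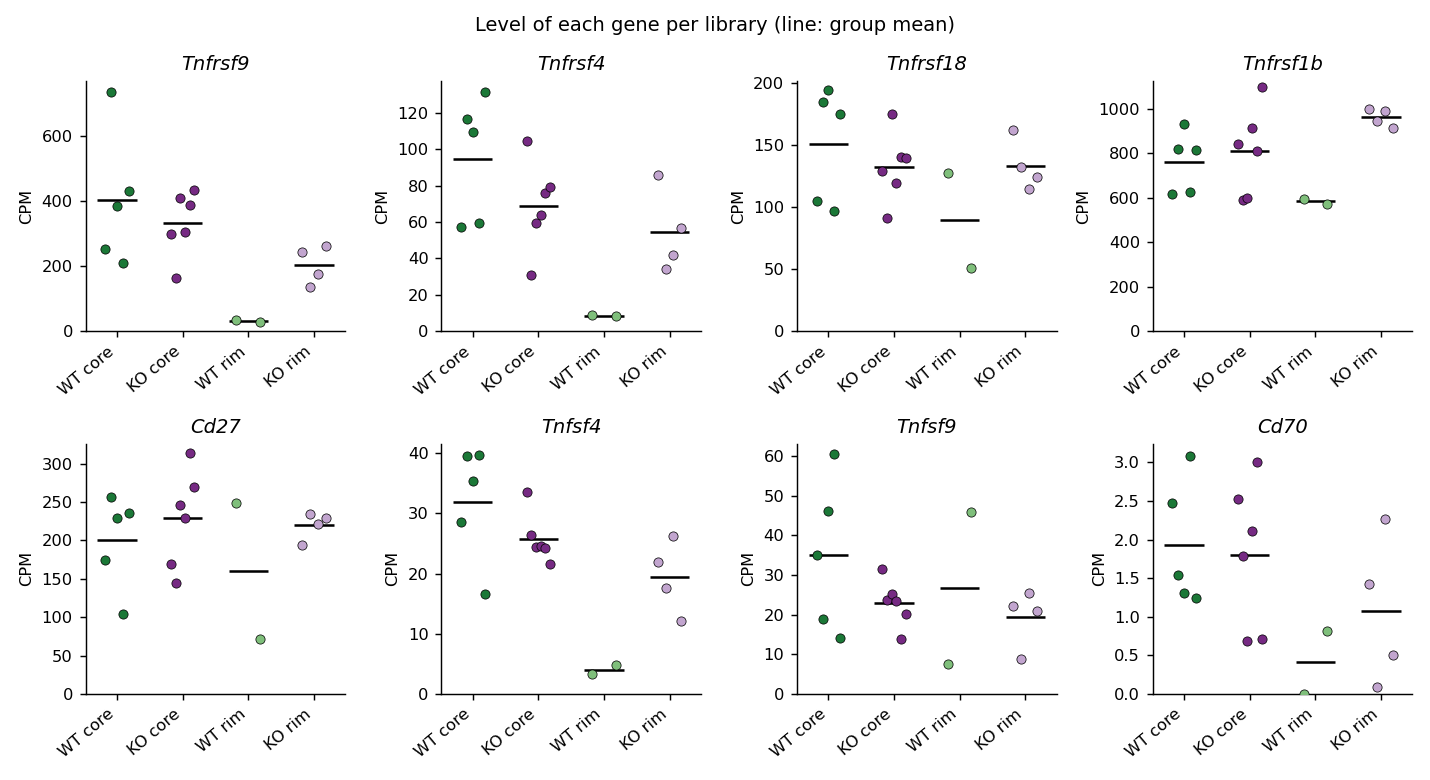
Level of each of the 8 genes in every library, in CPM on an axis that starts at 0, with 1 point per library, libraries grouped by genotype and site, and a line at each group's mean. In Tnfrsf9, Tnfrsf4 and Tnfsf4 both WT rim libraries lie below every other library.

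Tnfrsf9 encodes 4-1BB, an inducible receptor that sustains CD8 T cell survival. In WT core it measured 733 CPM in H719, 432 in the pool, 386 in H873, 252 in F164 and 209.9 in H876. In WT rim it measured 34.5 CPM in H874 and 29.2 in H877. The lowest core library was thus well above the higher rim library. In KO core its levels ran from 164.3 CPM to 434 CPM with a median of 347 CPM, and in KO rim it measured 262 CPM in O, 242 in F15, 175 in F86 and 134 in F322. Group means were 403 ± 206 CPM (SD, n = 5) in WT core, 333 ± 99.6 CPM (n = 6) in KO core, 31.9 ± 3.77 CPM (n = 2) in WT rim and 204 ± 59.3 CPM (n = 4) in KO rim. The KO rim libraries overlapped with the KO core range and lay wholly above WT rim. The log2 fold change of WT core over WT rim was 3.61 (SE 0.501, edgeR adjusted p = 0.00253), which placed Tnfrsf9 at rank 15 by p among all genes. Core over rim in KO gave 0.69 (SE 0.315, edgeR adjusted p = 0.62).

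Tnfrsf4 encodes OX40, another inducible receptor, best known from CD4 T cells and abundant on regulatory T cells. In WT core it measured 131 CPM in the pool, 117 in H719 and 109.8 in H873, with 59.4 in H876 and 57.6 in F164, against 9.13 CPM (H874) and 8.14 CPM (H877) in WT rim. No core library came near the rim pair. KO core libraries ran from 31.0 to 104.8 CPM with a median of 70.04 CPM. KO rim libraries measured 86 CPM in F15, 57 in O, 42.1 in F86 and 34.1 in F322, all within the range of KO core. The log2 fold change of WT core over WT rim was 3.41 (SE 0.512, edgeR adjusted p = 0.00409), and that of KO core over KO rim 0.32 (SE 0.322, adjusted p = 0.895).

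Tnfsf4 encodes the OX40 ligand. Its WT core levels were 39.8 CPM in H876, 39.6 in H719, 35.4 in H873, 28.6 in F164 and 16.6 in the pool, and its WT rim levels 3.33 CPM in H874 and 4.78 in H877. The pool was the lowest WT core library and still exceeded both rim libraries. KO core libraries ran from 21.6 to 33.6 CPM with a median of 24.5 CPM, and KO rim libraries measured 26.2 CPM in F86, 22 in F15, 17.5 in F322 and 12.2 in O. The log2 fold change of WT core over WT rim was 2.93 (SE 0.398, edgeR adjusted p = 0.00253), at rank 11 by p, and that of KO core over KO rim was 0.39 (SE 0.258, adjusted p = 0.764).

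These calls depended in part on the tool and on single libraries. With limma voom and sample quality weights, Tnfrsf9 kept its call (adjusted p = 0.0412), while Tnfrsf4 (log2 fold change 3.40, adjusted p = 0.107) and Tnfsf4 (2.79, adjusted p = 0.0941) lost theirs at a similar size. Without H874, the number of genes called fell from 777 to 68, against 411 without H873 and 500 without H719, and Tnfrsf4 missed the threshold (log2 fold change 3.48, edgeR adjusted p = 0.0541). Over all libraries left out in turn the adjusted p ran from 0.00172 to 0.0389 for Tnfrsf9, from 0.00256 to 0.0541 for Tnfrsf4 and from 0.00175 to 0.0443 for Tnfsf4. Restricted to the 12 libraries of female cells all 3 passed, but under a stricter definition tried first, which kept 8 libraries, only Tnfsf4 did (edgeR adjusted p = 0.0436), with log2 fold changes of 3.49 for Tnfrsf9 and 3.21 for Tnfrsf4.

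Tnfrsf18 encodes GITR, which is high on regulatory T cells and induced on activated CD8 T cells. Its levels were 194 CPM in H873, 185 in H719, 175 in the pool, 104 in F164 and 96.6 in H876 of WT core, against 127.5 CPM (H874) and 50.8 CPM (H877) in WT rim. The rim libraries were unlike each other, and H874 lay inside the core range. KO core ran from 90.98 to 174.5 CPM (median 134 CPM) and KO rim measured 162 CPM in F15, 132 in F322, 124 in O and 115 in F86. The log2 fold change of WT core over WT rim was 0.71 (SE 0.329, edgeR adjusted p = 0.266), and that of KO core over KO rim was -0.03 (SE 0.244, adjusted p = 0.996).

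Tnfrsf1b encodes the type II TNF receptor, which binds membrane-bound TNF and has no death domain. By group mean per kilobase of exon it was the most abundant member. Its CPM levels were 933 CPM in H873, 819.7 in H719, 817 in the pool, 626 in H876 and 618 in F164 of WT core, and 594 CPM (H874) and 573 CPM (H877) in WT rim. The WT groups did not overlap, although the lowest core and the highest rim library were close. KO core ran from 592 to 1099 CPM with a median of 824 CPM, and KO rim measured 999 CPM in F15, 990.0 in F86, 944 in F322 and 916 in O. Its log2 fold change of WT core over WT rim was 0.34 (SE 0.219, edgeR adjusted p = 0.449), and that of KO core over KO rim was -0.26 (SE 0.165, adjusted p = 0.738).

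Cd27 encodes a receptor that marks naive and memory T cells and is lost on late effector cells. It measured 257 CPM in H719, 235 in the pool, 229 in H873, 175 in F164 and 104 in H876 of WT core. In WT rim it was at 249.2 CPM in H874 and 71.4 in H877, so the rim pair spanned most of the core range. KO core ran from 145 to 314 CPM (median 237.5 CPM), and KO rim measured 234 CPM in F322, 229.6 in O, 222 in F86 and 194 in F15. The log2 fold change of WT core over WT rim was 0.27 (SE 0.387, edgeR adjusted p = 0.778). Without H877 it was -0.35, so its direction rested on that library.

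Tnfsf9 encodes the 4-1BB ligand. It measured 60.5 CPM in H876, 46.3 in H873, 35.2 in F164, 18.9 in H719 and 14 in the pool of WT core, and 7.66 CPM (H874) and 45.8 CPM (H877) in WT rim. KO core ran from 13.8 to 31.7 CPM (median 23.6 CPM), and KO rim measured 25.5 CPM in F86, 22.1 in F15, 21 in O and 8.88 in F322. Libraries within a group thus differed as much as the groups did. The log2 fold change of WT core over WT rim was 0.34 (SE 0.61, edgeR adjusted p = 0.837), and it turned to -0.44 without H874.

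Cd70, the ligand of CD27, was low in all groups, and close to the detection limit in H874 of WT rim and F322 of KO rim. It measured 3.09 CPM in H876, 2.48 in F164, 1.54 in H719, 1.31 in H873 and 1.24 in the pool of WT core. KO core ran from 0.688 CPM to 3.01 CPM with a median of 1.95 CPM. In WT rim, H874 had 0 counts, which allows up to 0.13 CPM at 3 counts, and H877 had 18 counts (0.819 CPM). In KO rim it measured 1.42 CPM in F15, 2.27 in F86 and 0.506 in O, and F322 had 2 counts (0.0845 CPM, exact 95% Poisson interval 0.0102 to 0.305). These intervals and floors cover counting error only, since copies of 1 molecule made by PCR cannot be recognised here. Fitted fold changes of Cd70 against WT rim include a library at 0 and are no bound, so none is quoted, and the edgeR test of WT core against WT rim gave an adjusted p = 0.416.

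**Figure D2:**
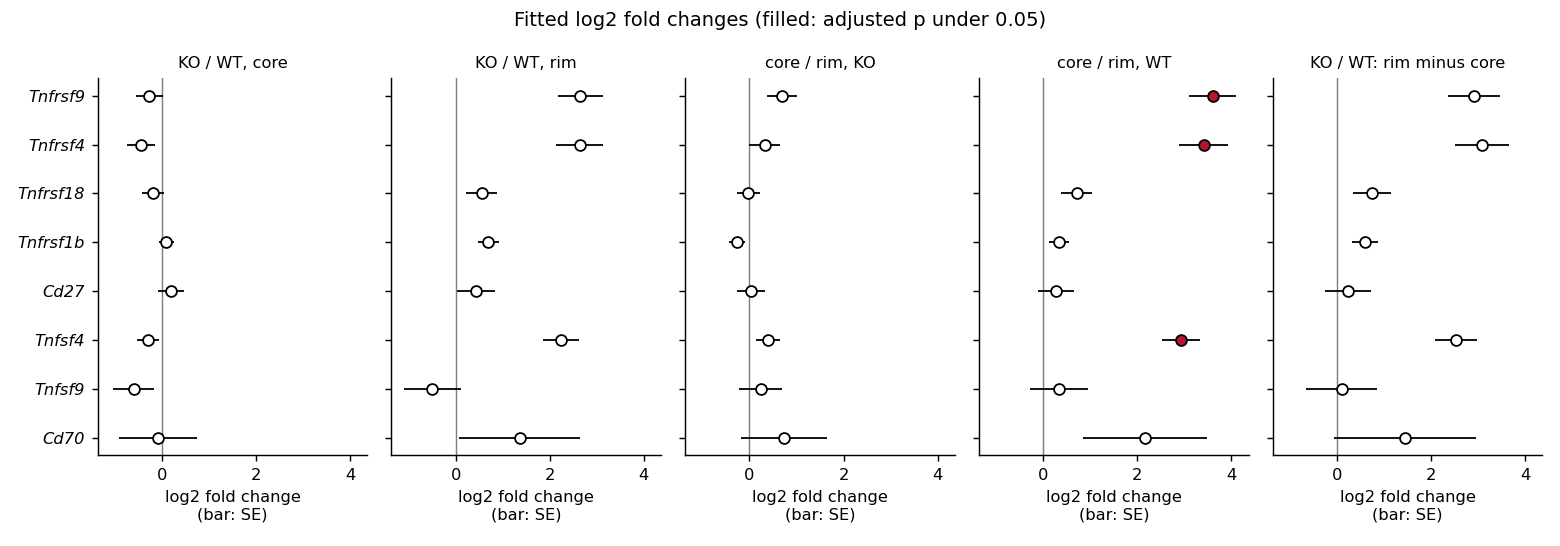
Log2 fold changes of the 8 genes with their standard errors as bars, from the edgeR fit, for KO against WT in core and in rim, core against rim in KO and in WT, and the rim minus core difference of the KO against WT effect; filled points passed the test. Core against rim in WT was 3.61 for Tnfrsf9, 3.41 for Tnfrsf4 and 2.93 for Tnfsf4, the only values past the test, and the values of Cd70 against WT rim include a library at 0 counts.

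In rim tissue, KO was compared with WT to look for differences that go with the loss of endothelial PD-L1. Tnfrsf9 was 6.25-fold, Tnfrsf4 6.2-fold and Tnfsf4 4.72-fold higher in KO rim, but none passed edgeR's test. The log2 fold changes were 2.64 (SE 0.478, edgeR adjusted p = 0.0866) for Tnfrsf9, 2.63 (SE 0.496, adjusted p = 0.096) for Tnfrsf4 and 2.24 (SE 0.388, adjusted p = 0.0641) for Tnfsf4. Of all 20137 genes, 0 were called (0 percent), with 1480 (7.35 percent) at an unadjusted p under 0.05. The 3 genes stood at ranks 10, 14 and 8 by p. By CPM, the KO rim libraries lay wholly above both WT rim libraries for Tnfrsf9, Tnfrsf4, Tnfrsf1b and Tnfsf4, as they did for 7.55 percent of all genes. They lay wholly below for 0 members and for 5.94 percent of all genes. This comparison shares its 2 WT rim libraries with core against rim in WT, so their values are not independent. Both WT rim libraries met the definition of female libraries, as did F15 and F86 in KO rim, while F322 and O in KO rim did not. Genotype and the sex of the cells were thus not balanced in rim.

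The tools disagreed on these 3 genes. DESeq2 called 272 genes in rim, among them Tnfrsf9 (adjusted p = 6.09e-07), Tnfrsf4 (3.04e-06) and Tnfsf4 (2.22e-06). Limma voom with sample quality weights called 0 genes and gave each of the 3 an adjusted p = 0.999. Leaving out KO rim F322 brought all 3 past edgeR's threshold, with adjusted p = 0.0386 for Tnfrsf9 and Tnfrsf4 and 0.0419 for Tnfsf4. Leaving out WT core H719 did so for Tnfrsf9 and Tnfsf4 (edgeR adjusted p = 0.0498 each), and leaving out WT core H876 for Tnfrsf9 (0.0496). Over all libraries left out in turn the adjusted p ran from 0.0386 to 0.278 for Tnfrsf9, from 0.0386 to 0.324 for Tnfrsf4 and from 0.0419 to 0.343 for Tnfsf4.

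The level of Tnfrsf1b was 584 ± 15.1 CPM (SD, n = 2) in WT rim, while 962 ± 39.1 CPM (n = 4) were measured in KO rim, and the log2 fold change between them was 0.69 (SE 0.229, edgeR adjusted p = 0.478). Tnfrsf18 gave 0.55 (SE 0.336, adjusted p = 0.731), which was 1.35 without H874 and 0.054 without H877, and Cd27 0.43 (SE 0.402, adjusted p = 0.825). Tnfsf9 gave -0.50 (SE 0.611, edgeR adjusted p = 0.894). Without H877 the value of Cd27 turned to -0.19 and that of Tnfsf9 to 1.33, so neither has a settled direction in rim.

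In core tissue no member differed between KO and WT past the test, and none had an unadjusted p under 0.05. EdgeR called 0 of 20137 genes (0 percent), with 1244 (6.18 percent) at an unadjusted p under 0.05, and DESeq2 called 12 genes and 0 members. The log2 fold changes of KO over WT were -0.27 (SE 0.289) for Tnfrsf9, -0.46 (SE 0.298) for Tnfrsf4, -0.30 (SE 0.239) for Tnfsf4 and -0.60 (SE 0.432) for Tnfsf9. Tnfrsf18 gave -0.19 (SE 0.229), Tnfrsf1b 0.09 (SE 0.155) and Cd27 0.20 (SE 0.277). For each of the 8 genes the libraries of both genotypes overlapped in core, while 0.214 percent of all genes were wholly higher and 0.209 percent wholly lower in KO.

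The difference between the genotype effects in rim and in core was tested as an interaction. It was 2.92 (SE 0.547, edgeR adjusted p = 0.143) for Tnfrsf9, 3.09 (SE 0.571, adjusted p = 0.139) for Tnfrsf4 and 2.54 (SE 0.449, adjusted p = 0.113) for Tnfsf4, and between 0.10 and 0.74 for Tnfrsf18, Tnfrsf1b, Cd27 and Tnfsf9. EdgeR called 0 genes (0 percent) and had 1547 (7.68 percent) at an unadjusted p under 0.05. DESeq2 called 159 genes, including these 3. An effect of the genotype that differs between rim and core was therefore not shown by the test used throughout. Without the WT core pool, Tnfsf4 passed (edgeR adjusted p = 0.0371), and without KO rim F322, Tnfrsf4 passed (0.0462). Over all libraries left out in turn, the adjusted p ran from 0.0371 to 0.306 for Tnfsf4 and from 0.0462 to 0.29 for Tnfrsf4.

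Within KO mice, core against rim called 0 of 20137 genes (0 percent), with 1600 (7.95 percent) at an unadjusted p under 0.05, and DESeq2 called 33 genes and 0 members. The 2 sites overlapped for each of the 8 genes, while 0.819 percent of all genes were wholly higher and 0.785 percent wholly lower in core. The 3 identifiers found at both sites allow a direct look. Tnfrsf9 was 2.28, 2.22 and 1.66 times as high in core as in rim for F322, F86 and O, and Tnfrsf4 was 1.87, 1.81 and 1.39 times as high. Tnfsf4 was 1.4 and 1.78 times as high in core for F322 and O but 0.928 times for F86. Tnfsf9 was split as well, at 2.64 for F322, 0.541 for F86 and 0.963 for O. The labels do not say that an identifier marks an animal.

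**Figure D3:**
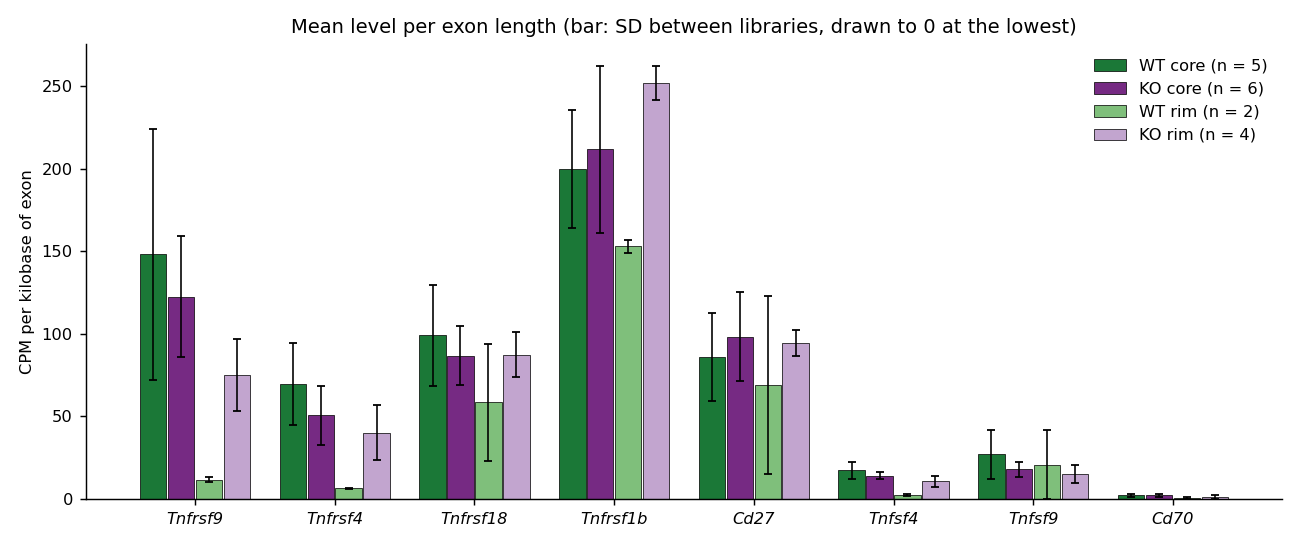
Mean level of each gene per kilobase of exon in the 4 groups, as bars in CPM per kb from 0, with the SD between libraries as lines cut at 0. Tnfrsf1b was the highest and Cd70 the lowest member in each group, and Tnfrsf9 was at 148 CPM per kb in WT core and 11.7 CPM per kb in WT rim.

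Compared per kilobase of exon, Tnfrsf1b was the most abundant of the 8 in all groups, at 199.8 ± 35.9 CPM per kb (SD, n = 5) in WT core, 212 ± 50.5 (n = 6) in KO core, 153 ± 3.95 (n = 2) in WT rim and 252 ± 10.2 (n = 4) in KO rim. Tnfrsf9 came next in core, at 148 ± 75.8 CPM per kb in WT and 122.5 ± 36.6 in KO. It was above Tnfrsf1b in 1 of 5 WT core libraries and in none of the 6 KO core libraries. Tnfrsf18 and Cd27 took the third and the fourth place in WT core, 99.0 ± 30.6 and 85.9 ± 26.4 CPM per kb, and exchanged order in KO core, where 4 of 6 libraries had more Cd27. These neighbours did not differ beyond their spread. In WT rim, Tnfrsf9 was at 11.7 ± 1.39 CPM per kb, below Cd27 and Tnfrsf18 in both libraries. Tnfsf9 had the higher mean (20.7 ± 20.9 CPM per kb) but exceeded Tnfrsf9 in 1 of 2 libraries, H877. In KO rim Tnfrsf9 was at 74.8 ± 21.8 CPM per kb, with a mean below those of Cd27 (94.5 ± 7.82) and Tnfrsf18 (87.4 ± 13.4). Tnfrsf18 exceeded Tnfrsf9 in 3 of 4 KO rim libraries. In F15, Tnfrsf9 (89.1 CPM per kb) was above Cd27 (83.2 CPM per kb). Tnfsf9 was above Tnfsf4 in 4 of 5 WT core, 5 of 6 KO core and 3 of 4 KO rim libraries, and Cd70 was last in each group.

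The members varied together to different degrees over the 17 libraries. On log2 CPM, Tnfrsf9 and Tnfrsf4 had a Pearson correlation of 0.951, which stayed at 0.803 over the 15 libraries outside WT rim. Tnfrsf9 and Tnfsf4 had a correlation of 0.809 that dropped to 0.186 without WT rim, so their likeness rested on those 2 libraries. Tnfrsf4 and its genomic neighbour Tnfrsf18 correlated at 0.704, and at 0.701 without WT rim. Cd27 and Tnfrsf18 correlated at 0.805, and at 0.609 without WT rim. Cd27 and Tnfsf9 correlated at -0.688, and at -0.687 without WT rim. These are descriptions over libraries that share groups, and carry no test.

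**Figure D4:**
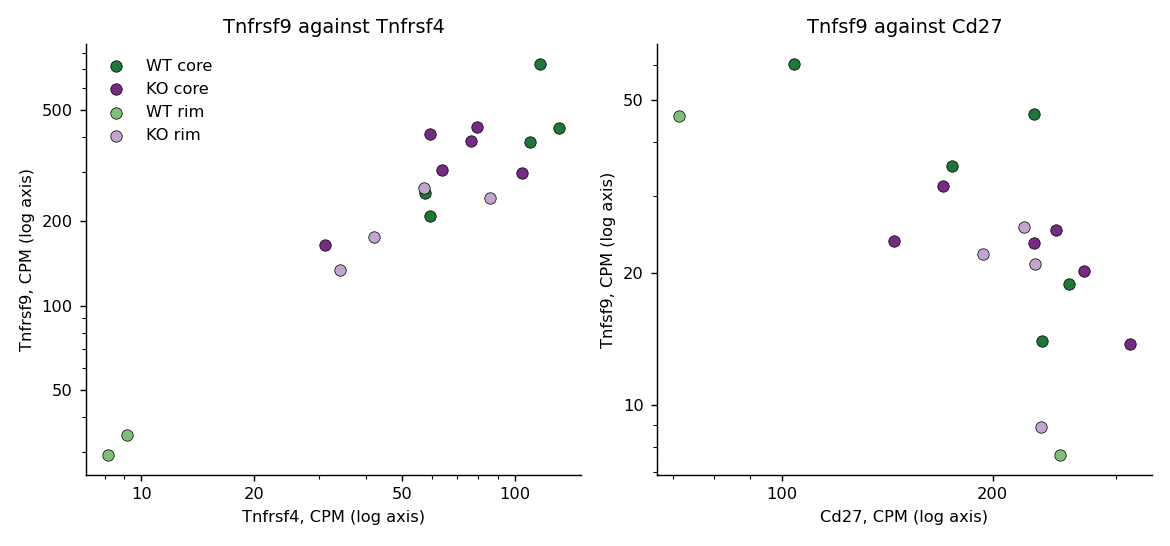
Levels of Tnfrsf9 against Tnfrsf4 and of Tnfsf9 against Cd27, in CPM on log axes, with 1 point per library coloured by group. The 2 WT rim libraries lie apart at low values of Tnfrsf9 and Tnfrsf4, and H876 and H877 combine low Cd27 with high Tnfsf9.

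The genes most like Tnfrsf9 among 9777 candidates were Nrn1 (r = 0.976), Nrgn (0.97), Cd101 (0.957), Ube2c (0.951) and Tnfrsf4 (0.951), and all of them remained above 0.8 without WT rim. For Tnfrsf4 they were Tnfrsf9 (0.951), Cd101 (0.948), Slc43a3 (0.936), Nrn1 (0.935) and St14 (0.919). Nrn1 encodes neuritin and Cd101 an immunoglobulin-domain protein that is a known marker of terminally exhausted CD8 T cells. Ccr8, a chemokine receptor, was among the genes most like Tnfrsf18 (0.877), and Ctla4, an inhibitory receptor, among those most like Tnfrsf1b (0.812). Cd3d, a subunit of the T cell receptor complex, was among those most like Cd27 (0.899). Tnfsf4 was most like Clgn (0.895) and Nelfe (0.895), which dropped to 0.46 and 0.661 without WT rim. Tnfsf9 was most like Cd33 (0.921), a receptor of myeloid cells, followed by Rab7b (0.913) and Itm2c (0.906). Cd70 was most like Capzb (0.901).

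Markers of other cells differed between libraries beside some of these values. In H876, the WT core library with the most Tnfsf9 and the least Cd27, dendritic cell markers summed to 18400 CPM, against 3144 to 7711 CPM in the other WT core libraries. H719 and the pool, with the least Tnfsf9, had sums of 3144 CPM and 3960 CPM. The WT rim library H877, which had more Tnfsf9 and less Cd27 and Tnfrsf18 than H874, had a sum of 8373 CPM against 5466 CPM in H874, with 188.7 CPM against 24.9 CPM of Itgax and 104 CPM against 4.67 CPM of Cd4. By the sum, the order did not hold everywhere. KO rim F86 had the most Tnfsf9 of its group with the lowest sum (3328 CPM). H874 had less Tnfsf9 than H719 and the pool with a higher sum. Much of the sum was Cd74, H2-Ab1 and Ccr7, which averaged 3300, 1370 and 1960 CPM in WT rim. By Itgax, H874 was below H719 (47.2 CPM) and the pool (74.8 CPM). In KO rim, Itgax was lowest in F322 (50.2 CPM), which had the least Tnfsf9. F86, at 75.7 CPM, was still below F15 (83.1 CPM) and O (127 CPM). H876 also had the highest B cell sum of WT core (426.6 CPM). The part of these other cells in the levels of Tnfsf9, Cd27 and Tnfrsf18 was not tested.

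Regulatory T cells carry Tnfrsf4, Tnfrsf18 and Tnfrsf1b. Foxp3, which defines them, averaged 6.76 CPM in WT core, 4.16 CPM in KO core, 1.5 CPM in WT rim (0.13 CPM in H874 and 2.87 CPM in H877) and 1.9 CPM in KO rim. Mean Foxp3 and mean Tnfrsf4 were thus both lower in WT rim than in WT core. Between single libraries, Tnfrsf4 was at 9.13 CPM in H874 and 8.14 CPM in H877, and in KO rim F86 it measured 42.1 CPM with Foxp3 at 0. The part of regulatory T cells in the levels of Tnfrsf4, Tnfrsf18 and Tnfrsf1b was not tested. The summed CPM of the 6 CD4 and regulatory T cell markers ran from 112.6 to 158.8 in WT core, from 85.2 to 184.5 in KO core, from 30.95 to 139.6 in WT rim and from 35.6 to 105.5 in KO rim. Of those 6, Il2ra, which activated T cells also express, was called higher in WT core than in WT rim (log2 fold change 2.10, edgeR adjusted p = 0.024). That comparison called 2.1 percent of all genes higher in core.

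Of 8 macrophage markers, 2 were called higher in WT core than in WT rim, C1qb (3.45, edgeR adjusted p = 0.0328) and C1qc (3.45, adjusted p = 0.0335). The other 6 had positive log2 fold changes that did not pass. Of all genes, 2.1 percent were called higher. In KO against WT in rim all 8 were positive with 0 called (median 1.97). The 7 lung epithelium markers were all positive with 0 called in both comparisons. Their medians were 2.13 in WT core against WT rim and 1.73 in KO against WT in rim. In the latter, 0 of 6 B cell and 0 of 9 dendritic cell markers were positive. The sums over the 8 macrophage markers overlapped, at 989 and 1605 CPM in WT rim, 1585 to 4998 CPM in WT core and 519 to 6708 CPM in KO rim. Much of the sum was Lyz2, which averaged 1040 CPM in WT rim, 2370 CPM in WT core and 2200 CPM in KO rim. Taken singly, C1qa did not overlap between the WT groups. It measured 11.5 CPM (H874) and 9.28 CPM (H877) in WT rim against 50.2 to 184.8 CPM in WT core. In KO rim C1qa ran from 11.4 to 166.7 CPM and overlapped with WT rim. In KO rim F86, which had the lowest macrophage sum, Tnfsf4 was at 26.2 CPM, the highest of the KO rim libraries. B cell markers summed to 329 and 483 CPM in WT rim, 103 to 427 CPM in WT core and 76.7 to 446 CPM in KO rim, with Cd79a at 101.2 CPM in WT rim and 55.05 CPM in WT core. The part of these cells in the levels of Tnfrsf9, Tnfrsf4 and Tnfsf4 was not tested.

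The remaining TNF-superfamily genes were read from the same fit. Of 22 other receptors tested, 0 were called in any of the 5 comparisons. In WT core against WT rim their median log2 fold change was 0.18 with 14 positive, against 0.71 for the 5 member receptors and 0.03 for all genes. The median of the 5 is the value of Tnfrsf18, which did not pass and was 1.51 without H874 and 0.21 without H877. Among the 22 other receptors the smallest p belonged to Tnfrsf26 (log2 fold change -1.38, edgeR adjusted p = 0.0625), followed by Tnfrsf8, which encodes CD30 (1.65, adjusted p = 0.178). Of 14 other ligands tested, 2 were called higher in WT core than in WT rim and 0 lower, where 2.1 percent of all genes were called higher and 1.76 percent lower. Tnfsf10, which encodes the death ligand TRAIL, measured 144 ± 36.7 CPM (SD, n = 5) in WT core and 43.5 ± 2.19 CPM (n = 2) in WT rim, which is 1.67 on the log2 scale (SE 0.365, edgeR adjusted p = 0.0205). Tnfsf13b, which encodes the B cell survival factor BAFF, measured 13.0 ± 5.91 CPM and 2.58 ± 0.655 CPM, which is 2.27 on the log2 scale (SE 0.534, adjusted p = 0.028). The median over the 14 ligands was 1.35, with 11 positive.

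**Figure D5:**
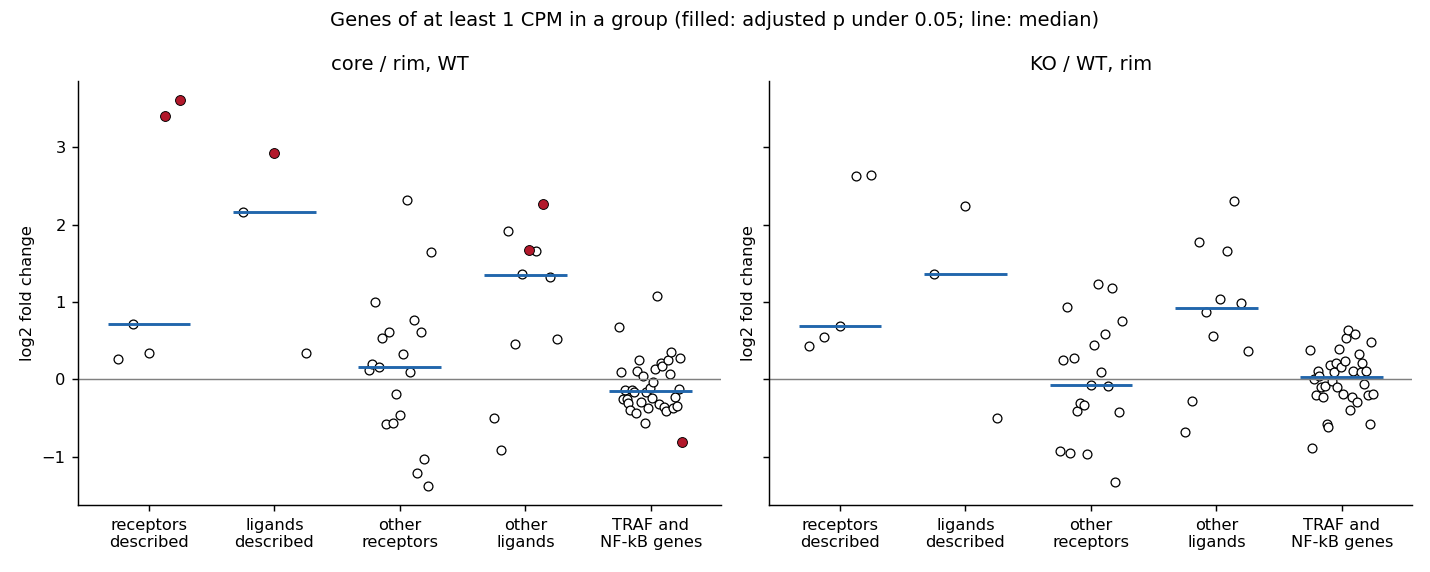
Log2 fold changes of the member receptors, the member ligands, the other TNF-superfamily receptors and ligands, and the TRAF and NF-kappa B genes, with 1 point per gene of at least 1 CPM in a group, the median as a line and genes past the test filled, for core against rim in WT and for KO against WT in rim. The 36 TRAF and NF-kappa B genes centre on -0.15 and 0.03, while the member receptors have medians of 0.71 and 0.69.

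The ligands known to bind the member receptors had their own patterns. Tnfsf18, the ligand of Tnfrsf18, had 0 counts in 14 of 17 libraries, with 23 counts in WT core F164, 24 in WT rim H874 and 35 in KO rim O. Tnf, a ligand of Tnfrsf1b, averaged 30.7 ± 18.4 CPM (SD, n = 5) in WT core, 24.7 ± 4.87 CPM (n = 6) in KO core, 11.5 CPM in WT rim and 17.5 CPM in KO rim. Lta, which encodes lymphotoxin alpha and also binds Tnfrsf1b, averaged 34.3, 22.3, 8.77 and 30.5 CPM in the same order. Neither Tnf nor Lta was called in any comparison.

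Downstream, the 36 genes of TRAF and NF-kappa B signalling gave 1 call, in WT core against WT rim. That comparison called 3.86 percent of all genes, with 1.76 percent lower in core. A single call among 36 genes is near that share. Traf6, an adaptor and ubiquitin ligase, was lower in WT core (62.3 CPM) than in WT rim (105 CPM), a log2 difference of -0.80 (SE 0.202, edgeR adjusted p = 0.0366). The median of the 36 was -0.15, with 13 positive, beside 0.03 for all genes. In KO against WT in rim 0 of the 36 were called and their median was 0.03. The 2 smallest p-values there belonged to Traf5 (log2 fold change 0.48, edgeR adjusted p = 0.678) and Bcl3 (-0.89, adjusted p = 0.694). Among the other ligands in that comparison Tnfsf13b gave 2.31 (adjusted p = 0.244) and Tnfsf10 1.03 (adjusted p = 0.515), and among the other receptors Tnfrsf14 gave 0.45 (adjusted p = 0.667) and Tnfrsf25 -1.32 (adjusted p = 0.669). The smallest p-values of these lists in core belonged to Cd40lg, the CD40 ligand (log2 fold change of KO over WT -1.60, edgeR adjusted p = 0.796), and Nfkbiz, an atypical inhibitor protein of NF-kappa B (0.69, adjusted p = 0.796).

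Genes induced by T cell receptor signalling were set beside the members, since Tnfrsf9 and Tnfrsf4 are induced by it. Of 20 tested, 3 were called higher in WT core than in WT rim: Xcl1 (log2 fold change 3.998, edgeR adjusted p = 0.00195), Lag3 (2.72, adjusted p = 0.0113) and Il2ra (2.10, adjusted p = 0.024), named here after their values were seen. Of all genes, 2.1 percent were called higher. The median of the 20 was 0.36, with 14 positive. In KO against WT in rim 0 were called, the median was 0.87 and 18 were positive, while the median of all genes was 0.01. Nr4a1, an immediate early gene of T cell receptor signalling, had a value of -0.74 for WT core over WT rim (edgeR adjusted p = 0.222), and was likewise named after its value was seen.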

How the data were processed

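RNA of sorted CD8 T cells was extracted with the RNeasy Micro Kit and sequenced as TruSeq libraries, per the labels' protocols. Tools listed in the submitters' processing notes, without order or settings, are HISAT2, Bowtie2 2.4.5, cutadapt 3.2, featureCounts and Subread 2.0.0, with the builds GRCm38 and mm10. The authors deposited raw read counts for 27240 gene symbols in 17 libraries, with no normalization. CPM were computed from total counts, and CPM per kb from GENCODE M21 exon lengths. Libraries were grouped by the labelled genotype and site.

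Counts of all 17 libraries were fitted together in edgeR 4.0.16 (R 4.3.3) with filterByExpr, TMM scaling and the robust quasi-likelihood F test, two-sided, with Benjamini-Hochberg adjustment over 20137 genes and a threshold of 0.05. Standard errors (SE) are the absolute log2 fold change over the root of the F statistic. The script was tested on simulated data. Alternatives were DESeq2 1.42.0, limma 3.58.1 voom with quality weights or a replicate block, other scalings, no filter, only the groups compared, female libraries only, and each library left out in turn. Likeness used log2 CPM with a prior count of 2, among genes averaging 5 CPM or more.

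The members and gene lists were chosen with earlier results of these data known. All members were named. Each list of other family genes named up to 4 called genes with the smallest p or, with none called, up to 2, given as values only. Both needed 1 CPM in the higher group, and only part of the latter are printed. Female libraries were first defined by Xist above 50 CPM, which kept 8 libraries. After the values were seen, the cut-off was lowered to 10 CPM, with Y-linked genes under 1 CPM, because libraries without Y-linked reads had been left out, and 12 were kept. Both versions are reported.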

Additional observations from a re-analysis of the deposited data

How the results depend on the processing

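Calls rested on few WT rim libraries and on the tool. DESeq2 called 12 genes for KO against WT in core, 272 in rim (3 members), 33 for core against rim in KO, 1853 for core against rim in WT and 159 for the interaction (3 members). Without the filter on low counts, 2 genes were called for KO against WT in rim and 4 for the interaction. For core against rim in WT, 91 genes were called with only the groups compared, 59 with voom quality weights (1 member), 506 with the voom replicate block and 313 with female libraries only, in which all 3 members were called. The cut-off for female libraries was lowered after the Xist values were seen. The cut-off first tried, 50 CPM, called 42 genes and 1 member, Tnfsf4 (adjusted p = 0.0436), while Tnfrsf9 (0.0952) and Tnfrsf4 (0.0741) did not pass. The 3 members therefore depended on which libraries entered that alternative, and the first version dropped 4 libraries more than the second.

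Leaving out 1 library gave 0 to 26 genes and 0 to 3 members for KO against WT in rim, 68 to 851 genes and 2 to 3 members for core against rim in WT, and 0 to 14 genes and 0 to 1 members for the interaction. For core against rim in WT, 411 genes were called without WT core H873 and 500 without WT core H719. Uncalled members changed sign. For KO against WT in core, leaving out 1 library gave -0.44 to 0.073 for Tnfrsf9, -0.024 to 0.19 for Tnfrsf1b and -0.27 to 0.15 for Cd70. In rim the values were -0.19 to 1.58 for Cd27 and -1.28 to 1.33 for Tnfsf9. For core against rim in KO they were -0.11 to 0.083 for Tnfrsf18 and -0.070 to 0.13 for Cd27, and in WT -0.35 to 1.42 for Cd27 and -0.44 to 2.17 for Tnfsf9. For the interaction they were -0.39 to 1.38 for Cd27 and -0.67 to 1.94 for Tnfsf9. With female libraries only, Tnfrsf1b in KO against WT in core was -0.069 and Tnfsf9 in core against rim in KO -0.048. At the first cut-off, Tnfrsf18 was 0.075 and Tnfrsf1b -0.13 in KO against WT in core, Cd27 -0.36 and Tnfsf9 1.53 in rim, Tnfrsf4 -0.41 and Tnfsf9 -0.26 in core against rim in KO, Cd27 -0.41 in WT and -0.87 in the interaction. The causes were not tested. On TMM-scaled library sizes the mean of Tnfrsf1b in WT rim was 599 CPM, beyond its SD, and the other 31 group means stayed within theirs.

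The check used did not settle whether the identifiers F322, F86 and O pair the libraries. Deviations from the group means correlated weakly, at 0.0721, 0.0449 and 0.0818. Both libraries of F86 met the definition of female libraries, and those of F322 and O did not. All 3 core libraries but 1 of the 3 rim libraries correlated best with their own identifier. EdgeR with a replicate block on those 6 libraries called 0 genes and turned Tnfrsf18 to 0.077. The voom replicate block (correlation 0.0359) called the same number of members as the main test in all 5 comparisons.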
